A study of Mus musculus with 8 samples.

Results

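The genes described here encode the subunits of 2 large protein machines, the proteasome and the vacuolar proton-pumping ATPase (V-ATPase). They were taken from the deposited gene table as its protein-coding rows whose symbols begin with Psma, Psmb, Psmc, Psmd or Psme followed by a digit, apart from the immunoproteasome genes Psmb8, Psmb9 and Psmb10, or with Atp6v0 or Atp6v1. This gave 65 of the 54532 genes in the table, of which 42 carry proteasome symbols and 23 carry V-ATPase symbols. Of these, 56 reached a mean of 1 FPKM (fragments per kilobase of gene, scaled to library size) over the 8 libraries and were among the 13716 genes tested, 40 of them from the proteasome and 16 from the V-ATPase. The symbols also brought in 3 genes that are not counted as subunits here. These were Psmc3ip, a recombination factor, Psme2b, a near copy of Psme2, and Atp6v1fnb, a neighbour of Atp6v1f that was listed at 0 in all libraries.

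The RNA came from the substantia nigra of male C57BL/6 mice, in 4 groups of 2 libraries. Wild-type animals labelled as the control (called control) were set beside animals given an adeno-associated virus that carries α-synuclein (vector), animals given α-ketoglutarate, a metabolite of the citric acid cycle (AKG), and animals given both (combined). The series title places AKG in the diet and presents the virus as a model of Parkinson's disease. Its question, as far as the title gives it, is what dietary AKG does in mice with α-synuclein pathology. Ages, doses, the promoter and serotype of the virus and the species of its α-synuclein are not given in the labels, nor is any empty vector for the other groups. The labels do not state that the libraries of a group came from separate animals, so the p-values here measure only the spread between libraries, which may be technical.

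The proteasome degrades proteins marked with ubiquitin. Its 20S core is a barrel of alpha rings, which gate the entrance, and beta rings, which carry the proteolytic sites. The 19S cap recognises ubiquitin, removes it and threads the substrate into the core with a ring of ATPases, while other activators open the core without ubiquitin. The V-ATPase acidifies lysosomes, endosomes and synaptic vesicles: its V1 sector hydrolyses ATP in the cytosol and turns a rotor that drives protons through the membrane-bound V0 sector. α-Synuclein, the protein that accumulates in dopamine neurons in Parkinson's disease, is degraded by both proteasomes and lysosomes.

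Depth ranged from 16544190 reads assigned to genes (vector library 2) to 19125423 (combined library 1). Control library 1 was unlike the rest, with a mean Spearman correlation to the other libraries of 0.926, where each of the others reached 0.971 to 0.975. In that library the summed level of 8 pan-neuronal markers was 820 FPKM, against 1097 to 1208 elsewhere, and the sum of 9 choroid plexus markers was 9452 FPKM, against 92.3 to 5267 elsewhere. The sum of 5 red cell markers was 14.6 FPKM in control library 1, against 172 to 444 elsewhere. Deviations from the gene mean also followed gene length. The rank correlation across the tested genes was -0.52 and -0.28 in the control libraries, 0.26 and 0.45 in the vector libraries, 0.44 and 0.10 in the AKG libraries and 0.47 and -0.17 in the combined libraries. Both control libraries, and combined library 2 to a lesser degree, thus held relatively more signal from short genes. The differences from control of each complex, and of the genes described most fully, are therefore also given without control library 1. Th, the dopamine-synthesis enzyme that defines the cells of this region, was at 38.8 and 38.8 FPKM in the control libraries, 12.6 and 16.1 in the vector libraries, 10.7 and 10.4 in the AKG libraries and 14.6 and 16.6 in the combined libraries. Th RNA was thus found in every library. Slc6a3, another dopamine neuron marker, was at 24.1 and 28.5 FPKM in control, 1.43 and 3.87 with the vector, 0.801 and 0.615 with AKG and 4.99 and 11.9 with both. How much of the labelled tissue each library held was not tested.

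Proteasome genes were expressed at moderate to high levels in every library. The median over the 40 tested genes was 29.4 FPKM, against 6.45 over all 13716 tested genes. Among the subunits, mean levels ran from 4.02 FPKM for Psme4, the large nuclear activator PA200, to 151 FPKM for Psmc5, an ATPase of the 19S cap, a 37.5-fold range per unit of gene length. The alpha-ring genes had means between 20.1 and 79.7 FPKM and the beta-ring genes between 27.1 and 118 FPKM. The 2 tissue-restricted core subunits were near 0: Psma8, of the testis proteasome, was at 0.0612 to 0.704 FPKM, and Psmb11, of the thymus proteasome, at 0 to 0.0430 FPKM.

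Levels of most proteasome genes lay lower in each treated group than in the control group. In bulk tissue, fewer cells of a type and less RNA per cell cannot be told apart. With the vector 36 of 40 genes had a negative log2 difference from control, with AKG 37 of 40 and with both 38 of 40. The median differences were -0.28, -0.27 and -0.22 on the log2(FPKM + 1) scale, where the medians over all tested genes were -0.0087, -0.0098 and -0.0055. None of the 40 genes passed the test: limma with Benjamini-Hochberg adjustment over all 13716 genes gave no proteasome or V-ATPase gene an adjusted p under 0.05, the lowest being 0.294 with the vector, 0.269 with AKG and 0.349 with both. Of all tested genes, 0% were called with the vector, 0.00729% with AKG and 0% with both. At an unadjusted p under 0.05, 12, 13 and 9 proteasome genes lay lower and 0 higher in the same order, beside 7.54%, 7.19% and 5.19% of all tested genes lower and 9.27%, 10.5% and 8.71% higher. The fit with read-count weights (limma voom) also called 0 of them. Without control library 2, which leaves the unlike control library 1 as the only control and assumes that it varies like the other groups, limma called 16, 17 and 11 proteasome genes (40%, 42.5% and 27.5%). In that setting it also called 24.5%, 24.6% and 21.3% of all tested genes. The summed level of 11 dopamine neuron markers was 155 to 164 FPKM in control, 82.0 to 82.3 with the vector, 70.4 to 80.5 with AKG and 87.3 to 99.2 with both, with 7 of the 8 tested markers lower in each treated group and none at 0 in every library. The sum of 6 astrocyte markers was 342 to 444 FPKM in control, 273 to 301 with the vector, 260 to 290 with AKG and 293 to 322 with both, and 5, 6 and 6 of the 6 lay lower. Other neuronal markers ran the opposite way: the sum of 6 thalamic and midbrain excitatory markers was 89.1 to 169 FPKM in control, 191 to 230, 242 to 253 and 210 to 231 in the treated groups, with 6 of 6 higher in each, and that of 6 forebrain excitatory markers was 57.6 to 86.7 FPKM in control and 116 to 147 in the treated libraries, with 3 of 3 tested markers higher. The part of these markers in the proteasome levels was not tested.

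**Figure D1:**
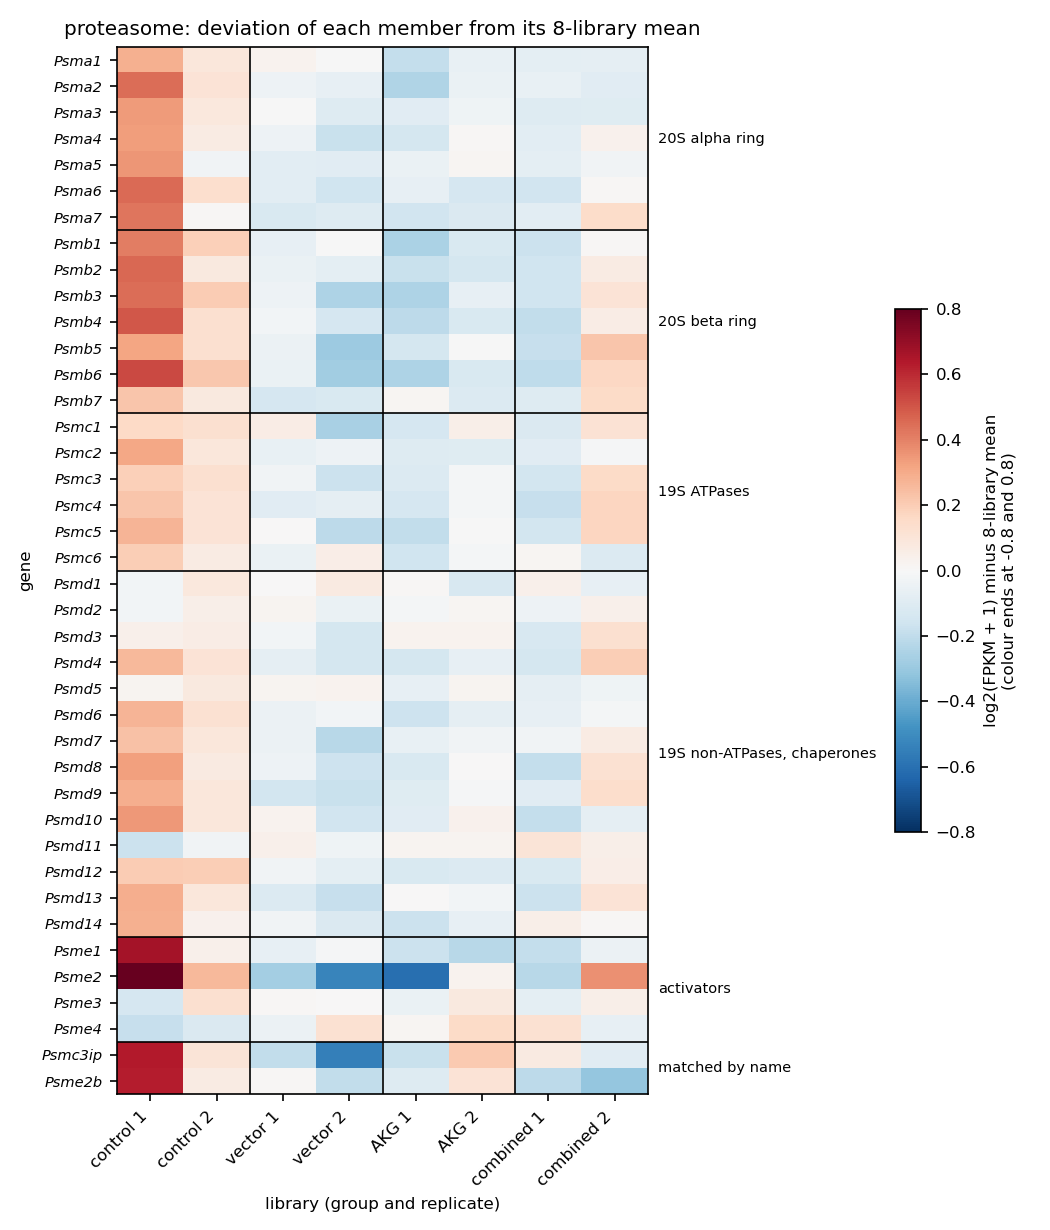
Deviation of each proteasome gene from its own mean over the 8 libraries (log2 of FPKM + 1), with genes grouped by role in rows and libraries in columns. Control library 1 is the highest library for 33 of the 40 tested genes, and the typical deviation there is 0.29.

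The separation between the control group and the others was widespread but uneven. Both vector libraries lay below both control libraries for 34 of 40 genes (85.0%) and above for 1, beside 27.6% of all tested genes lower and 26.3% higher. With AKG the counts were 31 lower (77.5%) and 2 higher, beside 26.4% and 26.0% of all genes. With both they were 21 lower (52.5%) and 2 higher, beside 20.5% and 21.3%. These 3 comparisons share the same control libraries, so they are not separate pieces of evidence. Control library 1 was the highest library for 33 of the 40 genes, against 4335 of the 13716 tested genes. Without it the medians were -0.17, -0.15 and -0.12, and without control library 2 they were -0.38, -0.38 and -0.32. Per library, the median deviation of the 40 genes from their own means was 0.29 and 0.089 in control, -0.043 and -0.12 with the vector, -0.13 and -0.019 with AKG and -0.11 and 0.046 with both, with a within-group SD of 0.10. Combined library 2 was thus close to control library 2, while combined library 1 lay with the vector and AKG libraries. These 2 combined libraries also differed in marker sums. For 6 oligodendrocyte markers the sum was 1253 and 1969 FPKM with both, 1221 and 1809 in control, 1406 and 1189 with the vector and 1164 and 1413 with AKG. For the 9 choroid plexus markers it was 96.6 and 5267 FPKM with both and 9452 and 520 in control. The part of these markers in the proteasome levels was likewise not tested.

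Among the roles, the beta ring had the most negative medians. They were -0.39 with the vector, -0.48 with AKG and -0.35 with both for its 7 tested genes. The alpha ring followed at -0.31, -0.31 and -0.26. The 6 ATPases were at -0.25, -0.23 and -0.17, the 14 other 19S genes at -0.24, -0.23 and -0.15 and the 4 activators at -0.19, -0.27 and -0.24. Without control library 1 the medians were -0.23, -0.29 and -0.20 for the beta ring, -0.14, -0.15 and -0.17 for the alpha ring, -0.20, -0.19 and -0.12 for the ATPases, -0.15, -0.14 and -0.088 for the other 19S genes and -0.10, -0.18 and -0.15 for the activators. The beta ring then kept the most negative median, while the order of the alpha ring and the ATPases turned with the vector and with AKG. Differences between roles were not tested.

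The proteolytic sites of the core lie on Psmb5 (chymotrypsin-like), Psmb6 (caspase-like) and Psmb7 (trypsin-like), and Psmb5 and Psmb6 were 2 of the 6 proteasome genes with a match to TGACNNNGC, the core of the antioxidant response element, in their promoters. The sequences below are the RefSeq bases upstream of the gene start in GRCm38.p6, without any annotated exon, 5′ to 3′ on the gene's strand, with the match in capitals. The Psmb5 stretch is chr14:54618023-54618245 on the minus strand, with its match 47 bases before the RefSeq start, and that of Psmb6 is chr11:70525107-70525356 on the plus strand, with its match ending at the start.
Psmb5: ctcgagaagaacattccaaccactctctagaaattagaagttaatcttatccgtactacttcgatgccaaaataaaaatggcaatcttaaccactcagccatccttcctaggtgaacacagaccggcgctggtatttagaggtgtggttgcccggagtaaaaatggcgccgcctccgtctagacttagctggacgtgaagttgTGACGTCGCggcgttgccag
Psmb6: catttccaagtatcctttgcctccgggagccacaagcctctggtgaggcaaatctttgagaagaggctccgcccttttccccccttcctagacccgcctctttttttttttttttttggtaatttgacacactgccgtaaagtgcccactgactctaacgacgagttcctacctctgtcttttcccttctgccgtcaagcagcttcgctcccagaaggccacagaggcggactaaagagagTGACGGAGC

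Promoter windows of 300 bases, from 250 before to 50 after the RefSeq start, were found for 35 of the 42 proteasome genes (38 windows) and were searched on both strands for 8 letter patterns. TGACNNNGC stood in 6 of 38 windows (15.8%; Psmb5, Psmb6, Psmc6, Psmd9, Psmd12 and Psme4), beside 13.0% of the 21263 windows of all protein-coding genes. CCGGAAGT, a core of ETS-family sites, stood in 9 of 38 (23.7%), beside 5.15% of all windows. GGGCGG, a GC box, stood in 57.9% against 46.2%, CCAAT in 36.8% against 38.2% and TATAAA in 7.89% against 12.6%. CACGTG, an E-box, stood in 3 windows (7.89%, against 7.84%). Its longer form TCACGTGA stood in 0, as did the CLEAR element, the palindrome that extends TCACGTGA by a G and a C. A match describes letters in a window and not a site in use. Of the genes with the first pattern, Psmb6 was among those with the most negative differences and the libraries of Psme4 lay above control before any correction for gene length.

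Psmb6 (ENSMUSG00000018286, chr11:70525367-70527858) was at 86.8 and 69.6 FPKM in the control libraries, 57.7 and 49.1 in the vector libraries, 50.2 and 54.8 in the AKG libraries and 52.0 and 67.2 in the combined libraries. Every treated library lay below both control libraries, with the highest of them (combined library 2, 67.2) just under the lower control library. The log2 differences from control were -0.54 ± 0.17 (SE) with the vector, -0.56 ± 0.17 with AKG and -0.39 ± 0.17 with both (limma adjusted p = 0.294, 0.269 and 0.360), and -0.38, -0.40 and -0.23 without control library 1. Psmb5 (ENSMUSG00000022193, chr14:54614119-54618022) was at 146 and 128 FPKM in control, 113 and 95.7 with the vector, 106 and 117 with AKG and 103 and 137 with both. Here the combined libraries straddled control library 2, and the differences were -0.39 ± 0.17, -0.29 ± 0.17 and -0.21 ± 0.17, the last of which was 0.032 once a trend on gene length, described further on, was removed. Psmb7 (ENSMUSG00000026750, chr2:38588036-38644087) was at 31.7 and 28.5 FPKM in control, 24.5 and 24.8 with the vector, 27.2 and 24.9 with AKG and 25.02 and 30.2 with both, with differences of -0.28 ± 0.12, -0.20 ± 0.12 and -0.13 ± 0.12. For it, too, the vector and AKG libraries were all below the controls and combined library 2 lay between them.

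The other beta subunits give the ring its structure. Psmb1 was at 48.1 and 41.2 FPKM in control, 34.3 and 35.9 with the vector, 30.1 and 33.0 with AKG and 31.8 and 36.2 with both. All 6 treated libraries lay below both controls, and its difference with AKG, -0.49 ± 0.12, had the lowest unadjusted p of the proteasome genes in that comparison (0.00584, limma adjusted p = 0.269). Psmb3 was at 49.3 and 41.4 FPKM in control, 34.8 and 30.0 with the vector, 30.0 and 34.2 with AKG and 32.0 and 38.8 with both, again with no overlap, and differed by -0.47 ± 0.15, -0.48 ± 0.15 and -0.35 ± 0.15. Psmb4 (132 FPKM in control library 1 and 80.3 to 102 in the others) and Psmb2 (72.3 and 46.2 to 55.5) were likewise highest in control library 1, and for both the treated libraries lay below the controls.

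In the alpha ring, whose subunits gate the core, control library 1 stood out. Psma6 (ENSMUSG00000021024, chr12:55384222-55418454) was at 108 and 86.7 FPKM in the control libraries, 74.4 and 70.4 in the vector libraries, 75.5 and 71.7 in the AKG libraries and 70.7 and 79.4 in the combined libraries. The treated libraries lay below both controls without overlap. Its differences were -0.42 ± 0.14, -0.39 ± 0.14 and -0.37 ± 0.14, and -0.26, -0.23 and -0.21 without control library 1. Psma7 was at 46.4 and 34.5 FPKM in control, 31.3 and 31.8 with the vector, 30.7 and 31.5 with AKG and 32.2 and 38.1 with both. Only control library 1 stood well above the rest, combined library 2 exceeded control library 2, and the combined difference of -0.19 ± 0.16 became 0.023 without control library 1. Psma5 was similar, with 54.3 FPKM in control library 1 and a range of 39.6 to 42.6 over the other libraries. Psma1, Psma2, Psma3 and Psma4 had treated libraries that all lay below both controls.

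The 19S ATPases unfold substrates and push them into the core. Psmc5, the most abundant, was at 181 and 162 FPKM in control, 151 and 129.6 with the vector, 131 and 150 with AKG and 136 and 169 with both. Vector and AKG libraries lay below both controls and combined library 2 above control library 2. The differences were -0.29 ± 0.16, -0.29 ± 0.16 and -0.18 ± 0.16. They were -0.21, -0.21 and -0.094 without control library 1, and -0.025, -0.050 and 0.042 with the length trend removed. Psmc1 was at 108 and 106 FPKM in control, 101 and 80.5 with the vector, 87.8 and 100 with AKG and 89.2 and 104.7 with both: its control libraries differed little, and both the vector and AKG groups held a library near 100 FPKM. Psmc2, Psmc3, Psmc4 and Psmc6 had control means of 25.3, 62.6, 48.7 and 25.1 FPKM and vector means of 21.1, 52.1, 40.9 and 22.8 FPKM.

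Among the 19S subunits without ATPase activity, Psmd4 and Psmd14, which handle ubiquitin, were near the median of the complex. Psmd4, a ubiquitin receptor, was at 53.1 and 47.7 FPKM in control, 41.9 and 40.0 with the vector, 40.0 and 42.1 with AKG and 39.9 and 50.8 with both, with differences of -0.29 ± 0.14, -0.29 ± 0.14 and -0.16 ± 0.14. Psmd14, the deubiquitinase of the lid, was at 31.1 and 26.0 FPKM in control, 24.9 and 23.4 with the vector, 22.4 and 24.2 with AKG and 26.2 and 25.6 with both; combined library 1 exceeded control library 2, and the differences were -0.23 ± 0.12, -0.28 ± 0.12 and -0.13 ± 0.12. Psmd12, a lid scaffold with nearly equal control libraries, was at 38.9 and 38.7 FPKM in control, 33.1 and 31.9 with the vector, 30.9 and 31.2 with AKG and 30.9 and 34.9 with both, so all 6 treated libraries lay below the controls whichever control library was used. Its difference with AKG was -0.31 ± 0.10 (limma adjusted p = 0.269).

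Several large 19S subunits lay nearer to control than the median of the complex. Psmd1 and Psmd2, the scaffolds of the cap's base, were at 16.3 to 18.96 and 56.5 to 60.7 FPKM with overlapping groups. Psmd11, a lid subunit that clamps the cap on the core, was at 6.62 and 7.42 FPKM in control, 7.83 and 7.36 with the vector, 7.71 and 7.69 with AKG and 8.19 and 7.84 with both. Control library 1 was its lowest library, the reverse of most of the complex. The AKG and combined libraries all lay above both controls. Psmd3 (24.9 to 30.2 FPKM) overlapped between the combined and control groups, but its vector and AKG libraries lay below both controls. The assembly chaperone Psmd5 spanned 9.15 to 10.3 FPKM, with both combined libraries below both controls. Psmd9, another chaperone of the base, was at 5.96 and 5.06 FPKM in control, 4.16 and 4.04 with the vector, 4.32 and 4.66 with AKG and 4.34 and 5.29 with both. Its differences were -0.35 ± 0.13, -0.24 ± 0.13 and -0.16 ± 0.13, but 25.5% of its exon bases overlap Gm26745 on the other strand, and whether reads were counted by strand is not stated by any source here.

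The activators diverged. Psme1 and Psme2 form PA28αβ, an interferon-inducible ring used in antigen processing. Psme2 (ENSMUSG00000079197, chr14:55587441-55591113) was at 18.5 and 10.8 FPKM in the control libraries, 7.19 and 5.84 in the vector libraries, 5.51 and 9.07 in the AKG libraries and 7.47 and 11.7 in the combined libraries. Control library 1 was the highest, the vector and AKG libraries all lay below control library 2 and combined library 2 above it. Its differences were the most negative of the tested members with the vector and with AKG, -1.02 ± 0.32 and -0.91 ± 0.32 (limma adjusted p = 0.294 and 0.27), followed by -0.55 ± 0.32 with both. Without control library 1 they were -0.66, -0.55 and -0.19. Psme2 shares near-identical sequence with Psme2b (24.0 and 15.9 FPKM in control, 15.3 and 13.1 with the vector, 14.0 and 16.4 with AKG and 13.0 and 12.03 with both), and reads may be split between them. Psme2b differed by -0.44 ± 0.19, -0.35 ± 0.19 and -0.61 ± 0.19. Psme1 was at 40.3 and 25.9 FPKM in control, 24.0 and 24.9 with the vector, 22.2 and 21.4 with AKG and 21.9 and 24.2 with both, with differences of -0.39 ± 0.19, -0.55 ± 0.19 and -0.47 ± 0.19 that became -0.080, -0.24 and -0.16 without control library 1.

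By contrast, Psme3, the nuclear activator PA28γ, had means of 36.4 FPKM in control, 36.5 with the vector, 36.6 with AKG and 35.9 with both. It was lowest in control library 1 (33.0 FPKM) and highest in control library 2 (39.8 FPKM). Psme4 was at 3.41 and 3.62 FPKM in control, 3.84 and 4.44 with the vector, 4.05 and 4.58 with AKG and 4.45 and 3.79 with both, with every treated library above both controls and differences of 0.18 ± 0.12, 0.23 ± 0.12 and 0.18 ± 0.12. With the length trend removed these were -0.022, 0.025 and -0.011, so no direction can be given for Psme4. Psme3 made up 35.9% of the summed FPKM of Psme1, Psme2 and Psme3 in control library 1 and 51.1% to 55.8% in the other 7 libraries. Psmc3ip, no proteasome subunit, was at 0.648 to 2.73 FPKM, and its difference with the vector was -0.74 ± 0.23.

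Immunoproteasome subunits replace the proteolytic beta subunits in immune cells and under interferon. Psmb8 was at 3.44 and 2.13 FPKM in control, 1.47 and 1.83 with the vector, 1.65 and 1.45 with AKG and 1.75 and 2.31 with both, and made up 1.22% to 2.31% of the summed Psmb5 and Psmb8 signal. Psmb10 was higher, at 35.9 and 30.4 FPKM in control, 25 and 22.0 with the vector, 22.3 and 26.7 with AKG and 23.8 and 31.6 with both, and made up 44.97% to 53.1% of Psmb7 plus Psmb10. For both genes the vector and AKG libraries lay below both controls. Psmb9 did not reach the level filter and made up 0.941% to 1.87% of Psmb6 plus Psmb9. These are shares of RNA signal and do not measure which subunits the cores contain. The summed level of 7 microglial markers was 177 to 199 FPKM in control, 137 to 147 with the vector, 142 to 165 with AKG and 148 to 185 with both. All 7 markers lay lower with the vector, 6 of 7 with AKG and 6 of 7 with both, and none was at 0 in every library. Their part in the levels of Psme1, Psme2 and the immunoproteasome was not tested.

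Of 16 tested genes for proteasome assembly and regulation, 10 lay lower and 6 higher than control in each of the 3 treated groups. The medians were -0.14, -0.15 and -0.097, and 0 were called. With the length trend removed the medians were -0.034, -0.12 and -0.080. Core chaperones lay lower: Pomp was at 27.2 and 22.3 FPKM in control, 17.9 and 18.1 with the vector, 17.9 and 20.3 with AKG and 18.4 and 22.4 with both, with 5 of 6 treated libraries below both controls. Ddi2, the protease that activates the proteasome transcription factor Nfe2l1, was at 2.15 and 3.10 FPKM in control, 3.60 and 4.14 with the vector, 3.897 and 3.58 with AKG and 4.06 and 3.72 with both, with all treated libraries above both controls. Control library 1 was its lowest library. Of all tested genes, 26.3%, 26.0% and 21.3% lay above control without overlap with the vector, AKG and both. Nfe2l1 itself was at 57.4 and 71.0 FPKM in control and 67.9 to 76.4 in the treated libraries. Among 19 ubiquitin and shuttling genes the medians were -0.021, 0.029 and -0.0043, with 12, 8 and 10 lower and 0 called. Their medians with the length trend removed were 0.042, 0.016 and -0.0027. Rps27a, which encodes ubiquitin fused to a ribosomal protein, was at 167 and 173 FPKM in control, 47.9 and 40.0 with the vector, 37.5 and 52.9 with AKG and 44.8 and 140.3 with both, so combined library 2 lay near the controls and the other 5 treated libraries at 52.9 or less.

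V-ATPase genes were more abundant than proteasome genes, with a median of 83.8 FPKM over the 16 tested. Subunit means ran from 9.98 FPKM for Atp6v0a2 to 172 FPKM for Atp6v0e2. The 7 genes below the filter were isoforms known from other tissues (Atp6v1b1 and Atp6v0a4 of kidney and inner ear, Atp6v0d2 of osteoclasts, Atp6v1c2, Atp6v1g3 and Atp6v1e2) and Atp6v1fnb, all under 1 FPKM in every library. Atp6v1b2 accordingly made up 100% of the B-subunit signal.

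**Figure D2:**
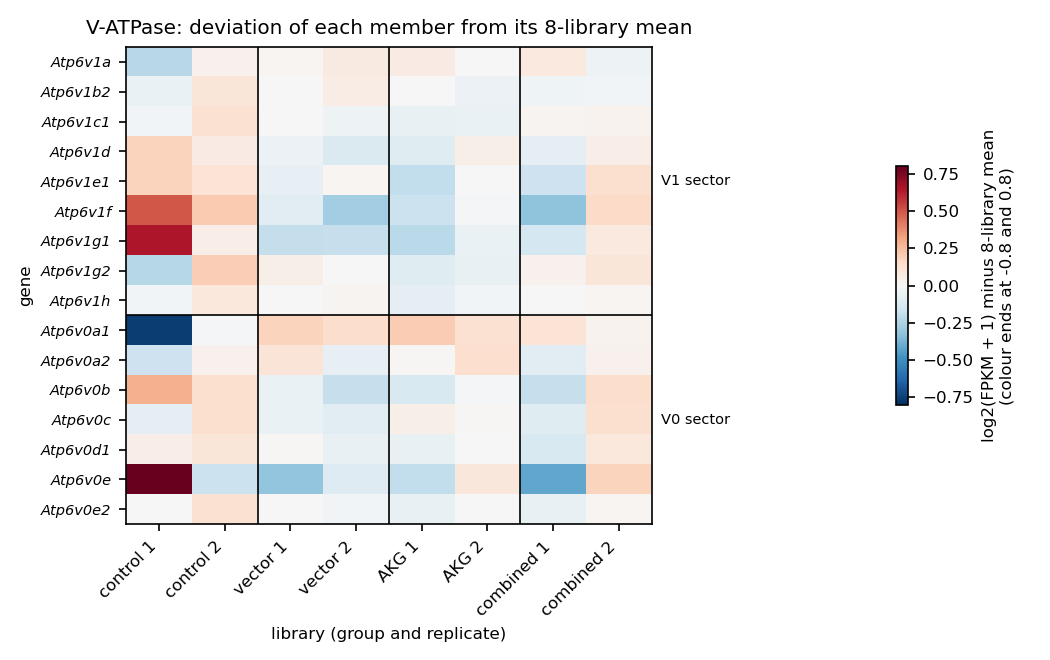
Deviation of each V-ATPase gene from its own mean over the 8 libraries (log2 of FPKM + 1), with genes grouped by sector in rows and libraries in columns. Atp6v0a1 is lowest and Atp6v1g1 and Atp6v0e are highest in control library 1, while most other genes differ little between libraries.

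V-ATPase differences from control were small at the median, and the contrast with the proteasome was not tested. With the vector 11 of 16 genes had a negative difference, with AKG 13 and with both 12. The medians of -0.086, -0.098 and -0.067 turned to 0.017, 0.028 and 0.015 under quantile normalization, so no direction can be given for the complex. The within-group SD of the per-library median was 0.071. No gene was called by limma (percentages of all genes as above), and at an unadjusted p under 0.05, 2, 1 and 0 lay lower and 1, 1 and 0 higher. Both treated libraries lay below both controls for 6, 9 and 2 of the 16 genes (37.5%, 56.3% and 12.5%, beside 27.6%, 26.4% and 20.5% of all genes) and above them for 1 in each. Without control library 1 the medians were -0.13, -0.13 and -0.10, and without control library 2 they were -0.0055, -0.031 and 0.0023. In that last setting limma called 3 V-ATPase genes (18.8%) in each comparison, a smaller share than the 24.5%, 24.6% and 21.3% of all tested genes.

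**Figure D3:**
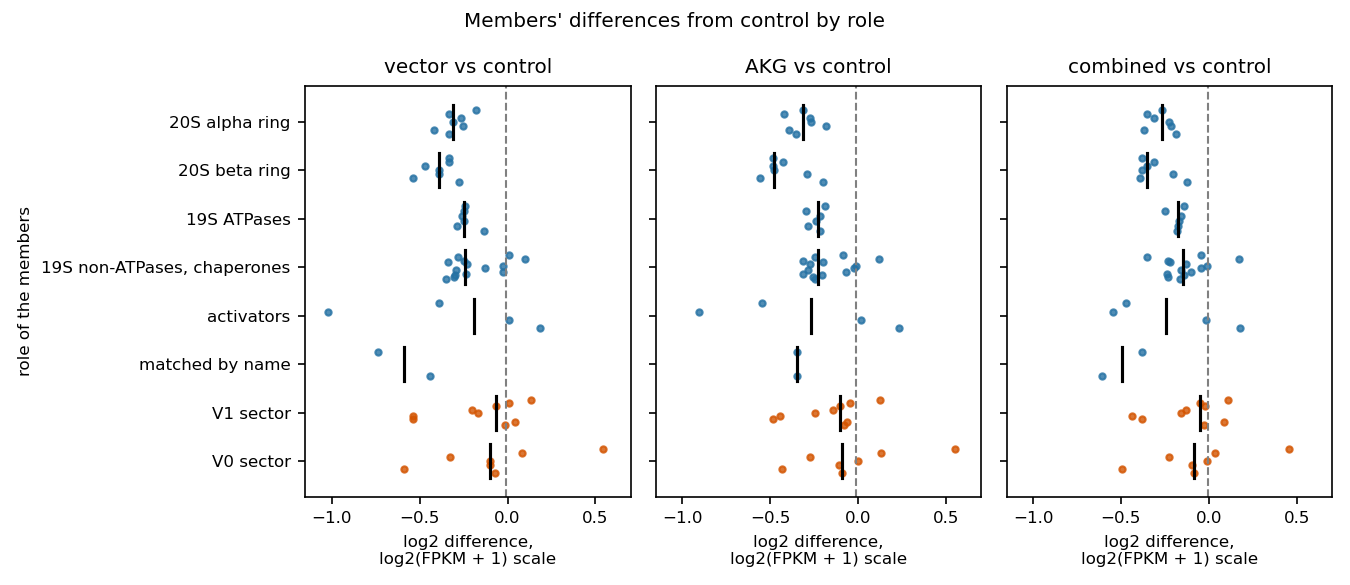
Log2 difference from control of each tested proteasome and V-ATPase gene, by role, for the vector, AKG and combined groups. Points are genes, black bars are medians and the dashed line is the median over all tested genes; the medians of the beta ring (-0.39, -0.48 and -0.35) lie lowest among the subunit roles while those of the V1 and V0 sectors lie between -0.10 and -0.050.

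In the V1 sector, the catalytic subunit Atp6v1a (ENSMUSG00000052459, chr16:44085402-44139705) was lowest in control library 1 (74.4 FPKM, against 84.3 to 92.0 in the other libraries). Its partner in the catalytic ring, Atp6v1b2, was at 129 to 143 FPKM and the regulatory subunit Atp6v1h at 17.9 to 20.1 FPKM, with groups that overlapped control except for the AKG libraries of Atp6v1h, which lay just under the lower control library. Atp6v1c1, which links the sectors, was at 40.8 to 46.2 FPKM, with both AKG libraries and vector library 2 below both controls.

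Smaller V1 subunits differed more. Atp6v1f (ENSMUSG00000004285, chr6:29467718-29470512), part of the central rotor, was at 166 and 136 FPKM in the control libraries, 111 and 96.8 in the vector libraries, 104 and 117 in the AKG libraries and 93.7 and 131 in the combined libraries. Every treated library lay below both controls. Its differences were -0.54 ± 0.19, -0.45 ± 0.19 and -0.44 ± 0.19 (limma adjusted p = 0.294, 0.284 and 0.358), and -0.39, -0.30 and -0.30 without control library 1. At 1063 exon bases it is the shortest tested V-ATPase gene, and the length trend described further on is not removed from these values. Atp6v1d, the other rotor subunit, was at 51.1 and 47.3 FPKM in control, 43.6 and 41.5 with the vector, 42.2 and 46.7 with AKG and 42.7 and 46.9 with both, with a vector difference of -0.20 ± 0.11. Atp6v1e1, of the peripheral stalks, was at 90.7 and 86.6 FPKM in control, 76.7 and 81.1 with the vector, 69.7 and 79.9 with AKG and 71.4 and 87.7 with both, and combined library 2 lay between the controls.

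The G subunit of the stalks has a broadly expressed isoform, Atp6v1g1, and a brain isoform, Atp6v1g2. Atp6v1g1 was at 153 and 101 FPKM in the control libraries, 85.3 and 85.7 in the vector libraries, 83.7 and 94.0 in the AKG libraries and 88.5 and 103 in the combined libraries. Control library 1 stood far above the rest, and combined library 2 exceeded control library 2. The differences of -0.54 ± 0.20, -0.48 ± 0.20 and -0.38 ± 0.20 became -0.24, -0.19 and -0.081 without it. Atp6v1g2 was the reverse, with 103 FPKM in control library 1 against 113 to 139 in the others. Its share of the G-subunit signal was 40.2% in control library 1 and 55.3% to 59.4% in the other 7.

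In the V0 sector, Atp6v0a1 (ENSMUSG00000019302, chr11:101009452-101063719), the main neuronal form of the membrane subunit that houses the proton channel's entry and exit, was at 39.0 and 66.1 FPKM in the control libraries, 75.6 and 73.6 in the vector libraries, 76.9 and 72.8 in the AKG libraries and 72.0 and 68.01 in the combined libraries. It was the only tested V-ATPase gene with all 6 treated libraries above both controls. The differences of 0.55 ± 0.22, 0.55 ± 0.22 and 0.45 ± 0.22 (limma adjusted p = 0.294, 0.277 and 0.380) became 0.17, 0.18 and 0.080 without control library 1. It made up 74.4% of the signal of the a subunits, Tcirg1 included, in that library and 81.7% to 85.3% in the others. The pan-neuronal marker sum was also lowest there, as given above, and its part in these shares was not tested. Tcirg1, the a subunit of osteoclasts and macrophages, held 8.76% in control library 1, 5.56% in control library 2 and 3.37% to 4.78% in the treated libraries. Atp6v0a2, of the Golgi, was at 8.79 to 11 FPKM.

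The small e subunit showed the same split between isoforms. Atp6v0e was at 20.6 and 9.04 FPKM in control, 8.11 and 9.54 with the vector, 8.85 and 11.1 with AKG and 7.497 and 11.8 with both. Only control library 1 was high: the differences of -0.59 ± 0.36, -0.43 ± 0.36 and -0.50 ± 0.36 became -0.036, 0.12 and 0.056 without it. Atp6v0e2, the brain-enriched form, was at 165 to 187 FPKM and made up 89.3% of the e signal in control library 1 and 93.6% to 95.6% elsewhere. The proton-carrying ring consists of Atp6v0c, at 60.9 to 71.2 FPKM with overlapping groups, and Atp6v0b, at 134 and 121 FPKM in control, 106 and 96.9 with the vector, 101 and 109 with AKG and 96.6 and 122 with both. The differences of Atp6v0b were -0.32 ± 0.15, -0.27 ± 0.15 and -0.23 ± 0.15, with combined library 2 just above control library 2. The pseudogene Atp6v0c-ps2 was listed at 5.13 to 7.49 FPKM, so some Atp6v0c reads may have been counted there. Atp6v0d1, which couples rotor and ring, was at 138 and 142 FPKM in control, 134 and 128 with the vector, 128 and 133 with AKG and 122 and 141 with both. Its vector and AKG libraries lay below both controls.

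**Figure D4:**
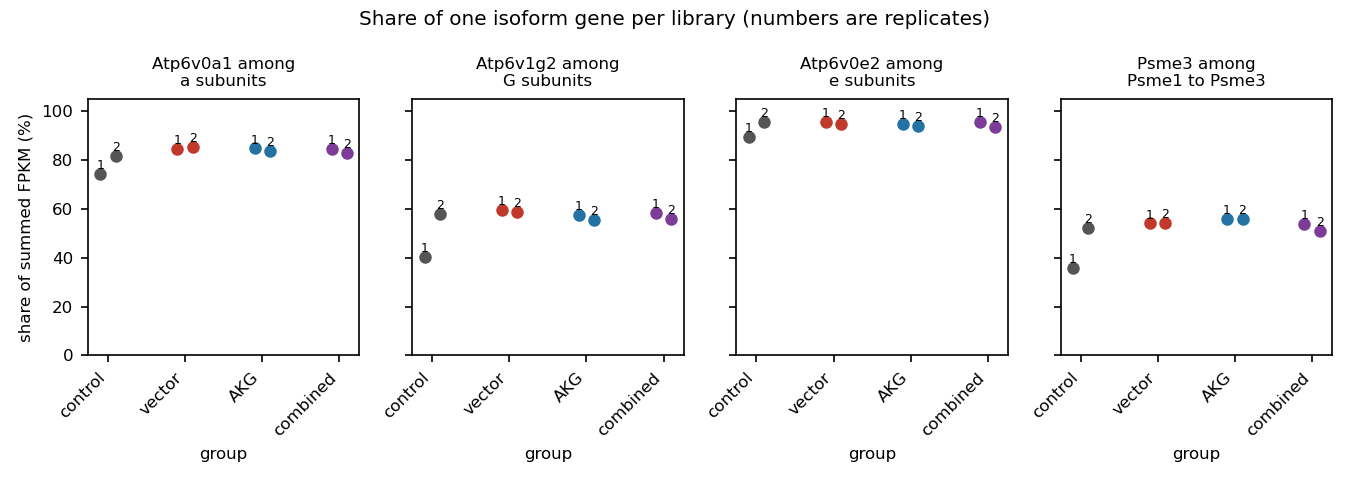
Share of each subunit's summed FPKM held by the named isoform, in percent, with 1 point per library. Control library 1 lies apart in Atp6v1g2 (40.2%), Atp6v0a1 (74.4%), Atp6v0e2 (89.3%) and Psme3 (35.9%), and the other 7 libraries cluster.

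V-ATPase genes are among the targets of TFEB, a transcription factor of lysosome genes that binds E-boxes, and TCACGTGA is a form of E-box that TFEB recognises. It stood in 3 of 20 windows from 17 matched genes (15%; Atp6v0d1, Atp6v0e and Atp6v1a), beside 1.23% of all windows and 0 of 38 proteasome windows. The Atp6v1a stretch is chr16:44139306-44139461 on the minus strand of GRCm38.p6 (RefSeq), with the match in capitals 132 bases before the RefSeq start. That start lies inside the span of Atp6v1a in the deposited table, given above, so the stretch is upstream of the RefSeq start and not of the whole gene.
Atp6v1a: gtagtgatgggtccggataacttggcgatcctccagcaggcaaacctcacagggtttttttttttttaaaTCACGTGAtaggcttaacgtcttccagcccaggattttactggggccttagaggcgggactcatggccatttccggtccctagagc

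The shorter CACGTG stood in 4 of 20 V-ATPase windows (20%) and includes these 3. The CLEAR element stood in 0, beside 0.419% of all windows. TGACNNNGC stood in 4 of 20 (20%), GGGCGG in 12 (60%), CCAAT in 4 (20%), CCGGAAGT in 2 (10%) and TATAAA in 1 (5%). The 3 genes with TCACGTGA did not share a pattern of levels. Atp6v1a was lowest and Atp6v0e highest in control library 1, and Atp6v0d1 was highest in control library 2.

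Of 16 tested V-ATPase accessory and regulatory genes, 7, 8 and 7 lay lower than control with the vector, AKG and both. The medians were 0.087, 0.0095 and 0.018, and 0 were called. With the length trend removed the medians were -0.020, -0.036 and -0.047, with 10 genes lower in each comparison. Dmxl2 and Wdr7, partners in the complex that reassembles V1 with V0, both lay above both controls in the vector and AKG libraries. So did 26.3% of all tested genes with the vector and 26.0% with AKG. Dmxl2 was at 6.17 and 10.02 FPKM in control, 12.1 and 13.0 with the vector, 12.2 and 11.6 with AKG and 13.1 and 10.7 with both. Control library 1 was the lowest library for Dmxl2 and for Wdr7. Tfeb was at 2.10 to 3.40 FPKM. Among 13 genes of the Ragulator and Rag GTPases, which read V-ATPase state at the lysosome for mTORC1, 8, 8 and 9 lay lower. Their medians were -0.081, -0.051 and -0.11, and 0 were called. The medians became -0.0026, 0.0077 and -0.011 with the length trend removed. Lamtor1, the anchor of Ragulator, was at 34.7 and 29.0 FPKM in control, 26.0 and 21.6 with the vector, 25.1 and 25.2 with AKG and 24.2 and 29.1 with both.

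Within both complexes the difference from control followed gene length. Proteasome genes are short, with a median of 2804 exon bases against 4070.5 over all tested genes and 3747 for the V-ATPase. Across the 40 proteasome genes the rank correlation between length and difference was 0.58 with the vector, 0.47 with AKG and 0.53 with both. Across the 16 V-ATPase genes it was 0.72, 0.72 and 0.67. These are descriptions across genes of the same libraries, and genes are not independent replicates. A limit of 4000 bases, chosen after the values were seen, divides the proteasome genes into 31 with medians of -0.30, -0.29 and -0.23 and 9 with medians of -0.028, -0.070 and -0.047. Psmd1, Psmd2, Psmd5, Psmd11 and Psme4 are all among the 9. So are Psmb1, Psmc2 and Psmd9, which lay lower, and Psmd3, which lay lower with the vector and with AKG. For the V-ATPase the medians were -0.21, -0.19 and -0.16 for 8 genes up to the limit and -0.0048, -0.063 and -0.023 for the 8 longer ones. When a smooth trend on length was removed from each library over all genes, the proteasome medians were -0.14, -0.17 and -0.14 and the V-ATPase medians -0.093, -0.11 and -0.10. With control library 1 also left out, the proteasome medians were -0.11, -0.11 and -0.086.

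**Figure D5:**
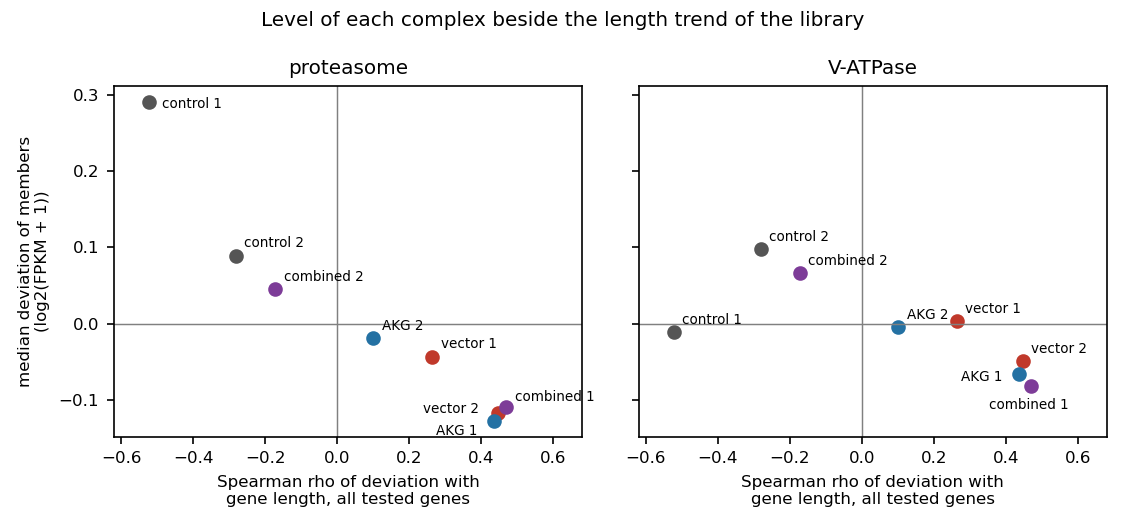
Median deviation of the tested proteasome genes (left) and V-ATPase genes (right) in each library, on the log2(FPKM + 1) scale, against that library's rank correlation between deviation and gene length over all tested genes; points are libraries, coloured by group. Proteasome levels run from control library 1 (0.29 at a correlation of -0.52) to combined library 1 and AKG library 1 (-0.11 and -0.13 at 0.47 and 0.44), while for the V-ATPase control library 1 lies at -0.011.

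The effect of AKG in mice with the vector is given by the combined group against the vector group. Proteasome genes lay slightly higher there, 27 of 40 with a median of 0.059, which is within the within-group SD of 0.10. V-ATPase genes had a median of 0.024. With 1 library left out these medians ranged from -0.033 to 0.13 and from -0.050 to 0.091, and both were negative only without combined library 2. Groups did not overlap for 9 proteasome genes higher (22.5%) and 3 lower (7.5%), beside 12.9% and 11.4% of all tested genes, and for 2 V-ATPase genes in each direction. No gene was called (0% of all genes), and 0 members had an unadjusted p under 0.05, beside 0.459% of all genes lower and 0.897% higher. Psme2, at 7.47 and 11.7 FPKM in the combined and 7.19 and 5.84 in the vector libraries, had a difference of 0.47 ± 0.32 (limma adjusted p = 1), and Psmd9 one of 0.19 ± 0.13. Psmb5 differed by 0.19 ± 0.17, and by -0.017 without combined library 2 (137 FPKM), since combined library 1 (103) lay between the vector libraries.

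Against AKG alone, the combined group had proteasome and V-ATPase medians of 0.058 and 0.0096. With 1 library left out they ranged from -0.025 to 0.12, negative without combined library 2, and from -0.056 to 0.092, negative without combined library 2 or AKG library 1. Of the 40 proteasome genes, 6 lay higher without overlap (15%) and 2 lower (5%), beside 11.3% and 11.8% of all genes. For the V-ATPase the counts were 3 and 1 of 16. No gene was called (0% of all genes), and 0 members had an unadjusted p under 0.05, beside 0.423% of all genes lower and 0.714% higher. Psma7 differed by 0.17 ± 0.16 and Atp6v1g2 by 0.15 ± 0.15, both with non-overlapping groups, and Psme2b by -0.26 ± 0.19.

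Whether AKG acted differently with and without the vector is the interaction, the difference of combined from vector minus that of AKG from control. It was positive for 36 of 40 proteasome genes, with a median of 0.33, and for 12 of 16 V-ATPase genes, with a median of 0.11, which was -0.0030 under quantile normalization, against 0.0087 over all genes. None was called by limma (lowest adjusted p 0.537, 0% of all genes). At an unadjusted p under 0.05, 5 proteasome genes were positive and 0 negative, beside 3.62% and 3.66% of all genes. Psme2 was at 1.38 ± 0.45, Psmb6 at 0.71 ± 0.25 and Psmb3 at 0.60 ± 0.22. Atp6v1g1 was at 0.64 ± 0.28, Atp6v1f at 0.54 ± 0.27 and Atp6v0a1 at -0.64 ± 0.32. The control group enters this value with a positive sign, so control library 1 bears on it directly: the proteasome median was 0.24 without that library, 0.43 without control library 2 and 0.17 after removal of the length trend. Without control library 2, limma called 2 proteasome (5%) and 2 V-ATPase genes (12.5%), beside 9.98% of all tested genes.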

How the data were processed

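RNA from 8 libraries was extracted with a column kit and made into libraries with a SMARTer mRNA kit, per the labels' protocols. The authors deposited 1 table of FPKM per gene, with GRCm38 (mm10) as the build per the submitters' processing notes. No source here names the aligner, the counter or the strandedness. FPKM divides by gene length, here the union of exon bases, and by library size. Whole reads were worked back (100% of values within 0.01 of a whole number) to give depth. The 13716 of 54532 genes whose mean reached 1 FPKM were fitted as log2(FPKM + 1) with limma 3.58.1 in R 4.3.3, with 4 group means over all 8 libraries and a trended prior. There were 4 residual degrees of freedom, and p-values were adjusted by the Benjamini-Hochberg method over all genes, with a threshold of 0.05. A fold change on this scale understates that of low genes. The fit was tested on simulated data with the same spread in every library and no difference in cell content. That test does not cover the unlike cell content of control library 1. Python 3.11.15 with pandas 2.3.3 was used otherwise. Genes were named from a list of members by role, from the members with the highest and lowest differences in each comparison and complex and from the genes with the smallest p in each related list. Other members in the text, among them Psma5, Psmb2 and Psmd12, and Lamtor1 were named after their values were seen. Members and gene lists were chosen with earlier results of these data known. Exon overlaps are from GENCODE M21. Over 10% of the exon bases lay in another gene for 6 of the 56 tested genes (Psmd9, Psmc3ip, Psmb5, Psmb7, Psmd13 and Atp6v0b). Their levels may include reads of the other gene, and the share of bases does not give the share of such reads.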

Additional observations from a re-analysis of the deposited data

Results flagged for a closer look

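For 9 of the 56 tested genes, every AKG library lay on one side of both control libraries and every combined library on the opposite side of both vector libraries. The same holds for 789 of the 13716 tested genes (5.75%). The interaction tests that difference, and none of the 9 passed it: the limma adjusted p was 0.653 for Atp6v1c1 and 0.537 for the other 8. On the log2 scale the interaction was 1.38 for Psme2, 0.50 for Psma7, 0.43 for Psmd9, 0.38 for Psmd14, 0.36 for Psmd7 and 0.35 for Psmb7 among proteasome genes, each lower with AKG alone and higher with AKG in vector mice. Among V-ATPase genes it was 0.64 for Atp6v1g1 and 0.15 for Atp6v1c1 in the same sense and -0.64 for Atp6v0a1 in the reverse sense.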

How the results depend on the processing

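The main limit is the pair of control libraries, which differ from each other and both enter every comparison with control. Without control replicate 2, limma called 16, 17 and 11 proteasome genes and 3, 3 and 3 V-ATPase genes with the vector, AKG and both, and 2 of each in the interaction; no other setting called any member, so these counts ranged from 0 to those values when 1 library was left out. All genes called then ranged from 0 to 3359, 0 to 3376, 0 to 2916 and 0 to 1369. With no level filter 5, 12, 4, 6 and 14 genes were called with the vector, AKG, both, combined against vector and combined against AKG. A pseudocount of 0.1 gave 2 with AKG and 1 with both. The 1 gene called with AKG was lost (0) without the trended prior, after removal of the length trend, with that removal and control library 1 left out, and with the replicate number as a block. With 1 library left out, proteasome medians ranged from -0.38 to -0.17, -0.38 to -0.15, -0.32 to -0.12, -0.033 to 0.13, -0.025 to 0.12 and 0.24 to 0.43 over the 6 comparisons in the order of the report, and V-ATPase medians from -0.13 to -0.0055, -0.13 to -0.031, -0.12 to 0.0023, -0.050 to 0.091, -0.056 to 0.092 and 0.047 to 0.17. Removal of the length trend took the proteasome medians to -0.14, -0.17 and, for the interaction, 0.17. With control library 1 also left out (chosen, like voom, after the data were seen) they were -0.11, -0.11, -0.086 and 0.15. Quantile normalization gave V-ATPase medians of 0.017, 0.028, 0.015 and, for the interaction, -0.0030. Signs of single genes were followed through the settings for part of the members and comparisons only. With 1 library left out, signs turned for Atp6v0e (-0.99 to 0.12 with AKG, -1.05 to 0.056 with both) and Psma7 (-0.39 to 0.023 with both), positive without control library 1, for Psmb7 (-0.26 to 0.0046) and Psmd4 (-0.33 to 0.014), positive without combined replicate 1, and for Psmb5 against the vector (-0.017 to 0.39) and Psmb6 against AKG (-0.014 to 0.35), negative without combined replicate 2. Signs turned after length removal for Psme4 (-0.022 with the vector, -0.011 with both), Psmc1 (0.0040 with AKG, 0.030 with both), Psmb5 (0.032) and Psmc5 (0.042), and for Psmc1 under quantile normalization (0.0082). With length removed and control library 1 out they turned for Psme1 (0.026) and Atp6v0e (0.025) with the vector, Psme2b (0.046), Psmc3ip (0.011) and Atp6v0e (0.16) with AKG, and Psma7 (0.063), Psmd14 (0.044), Atp6v1g1 (0.0082) and Atp6v0e (0.091) with both. Psma5, outside that part, also turned, to 0.020 with the vector and 0.062 with AKG after length removal. With AKG it was 0.010 without control library 1. The cause of these turns was not tested. The labels give the groups shared replicate numbers but no pairing, and the correlations of replicate differences between groups ran from -0.32 to 0.34; the replicate block left the medians as they were (-0.28 for the proteasome with the vector) and called 0 members. A fit on only the groups compared was not run for the interaction.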
